A study of Mus musculus with 6 samples.

Results

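The genes described here are the G1 cyclins with their kinases and closest transcription factors: the D-type cyclins Ccnd1, Ccnd2 and Ccnd3, the kinases Cdk4, Cdk6 and Cdk2, the E-type cyclins Ccne1 and Ccne2, and the transcription factors E2f1 and Myc. They were taken as every array probe whose platform annotation names 1 of these 10 genes, which gave 22 of 45281 probes and 10 of 19057 named genes. Sorted satellite cells, the myogenic stem cells that lie along muscle fibres, were profiled as 3 pools of pharyngeal and 3 pools of limb origin, the limb pools from gastrocnemius and quadriceps. All mice were C57BL/6 males, 8 to 10 weeks old. Neither group carried a transgene or received an agent, per the labels, and a pool held 150000 to 200000 cells from 10 to 30 mice. Which markers the sort used is not stated in the sources used here. RNA was amplified once and hybridized to Illumina MouseWG-6 v2.0 arrays, with 1 array per pool.

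In a cell leaving quiescence, mitogens raise the D-type cyclins, which bind Cdk4 or Cdk6 and begin the phosphorylation of the retinoblastoma protein. E-type cyclins with Cdk2 complete that step, which frees E2F factors such as E2f1 to switch on genes of DNA replication. Myc, a transcription factor induced by mitogens, drives growth genes and also acts on cyclin D and Cdk4 expression. Adult limb satellite cells mostly rest outside the cycle until injury, which need not hold for pharyngeal ones. Ccnd3 is also known for its part in leaving the cycle during myogenic differentiation.

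Promoter entries for 6 of the 10 genes were found in the RefSeq table (GRCm38.p6), as 7 start sites. The 250 bases before each listed start were searched on both strands. The searched words were the E-box CACGTG, which Myc binds with its partner Max, and the E2F words TTTCCCGC, TTTGGCGC, TTTCGCGC and TTTGCCGC. The E-box was present in 6.02% of 32851 such promoters and an E2F word in 1.86%. Cdk4 held 4 E-boxes, a number reached or passed by 7 of the 32851 promoters, and its paralogue Cdk6 held 1. Cdk2 held 1 E2F word, and Ccnd3 and Ccne1 held neither word in this window. The window before the listed E2f1 start also held neither, but its bases can be read as protein-coding sequence. It therefore says nothing about E2F words in the E2f1 promoter. The sequences of Cdk4 and Cdk6 are shown because these paralogues gave unlike differences, and both starts of Ccnd3 because its probes disagreed and it had the smallest p-value of the 10 genes. Capitals mark the E-boxes, and all run 5′ to 3′ on the strand of the gene.
Cdk4, chr10:127063285-127063534, plus strand: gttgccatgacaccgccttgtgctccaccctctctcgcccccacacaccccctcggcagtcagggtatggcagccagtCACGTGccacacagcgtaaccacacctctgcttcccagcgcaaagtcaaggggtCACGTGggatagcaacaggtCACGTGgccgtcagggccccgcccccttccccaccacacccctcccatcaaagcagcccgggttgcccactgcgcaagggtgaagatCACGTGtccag
Cdk6, chr5:3343643-3343892, plus strand: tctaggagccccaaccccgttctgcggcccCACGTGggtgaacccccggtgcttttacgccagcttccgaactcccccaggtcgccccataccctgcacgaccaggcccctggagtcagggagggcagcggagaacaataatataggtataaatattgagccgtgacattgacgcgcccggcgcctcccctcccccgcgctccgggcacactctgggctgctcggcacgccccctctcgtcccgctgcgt
Ccnd3 first start, chr17:47504801-47505050, plus strand: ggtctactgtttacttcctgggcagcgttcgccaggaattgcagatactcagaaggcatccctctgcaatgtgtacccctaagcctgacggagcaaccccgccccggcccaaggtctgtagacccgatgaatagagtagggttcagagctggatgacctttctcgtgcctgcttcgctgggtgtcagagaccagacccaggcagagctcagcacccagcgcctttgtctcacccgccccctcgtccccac
Ccnd3 second start, chr17:47593217-47593466, plus strand: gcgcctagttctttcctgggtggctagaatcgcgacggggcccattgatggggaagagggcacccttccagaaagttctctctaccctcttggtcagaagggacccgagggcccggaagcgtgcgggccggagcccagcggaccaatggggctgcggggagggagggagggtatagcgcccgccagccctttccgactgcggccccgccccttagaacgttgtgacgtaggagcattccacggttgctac

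The cell type in each pool was checked first. A probe was counted as above background on an array where its detection p-value (the fraction of the array's negative controls that outshone it) was under 0.05; between 20919 and 22793 probes met this per array. Of 11 satellite cell markers 6 fell in the pharyngeal pools and none rose, among them Pax7 (-2.27, SE 0.33, limma adjusted p = 0.0144) and Myf5 (-1.89, SE 0.27, adjusted p = 0.0133). Among fits without 1 pool, Pax7 lost its call without each limb pool and Myf5 without limb pool 2 or 3, with adjusted p-values up to 0.0900 for Pax7 and 0.0892 for Myf5. In those fits Pax7 was at -2.41, -2.24 and -2.17 and Myf5 at -1.75 and -1.78, and far fewer genes were called in all. Pax7 also lost its call without the filter on dim probes, which keeps probes above background on at least 3 of 6 arrays (adjusted p = 0.0504). The summed intensity of the satellite cell markers was 3652 to 3908 in pharyngeal and 6072 to 8561 in limb pools. Of 13 listed epithelial markers 11 passed that filter, 3 of them above background on no limb array and so through pharyngeal arrays alone. Of the 11, 7 rose, with sums of 2423, 3313 and 8577 in pharyngeal pools 1, 2 and 3 against 182 to 336 in limb pools. Krt14 and Krt5 differed by 5.52 and 5.06, and Krt5 was above background on 1 of 3 limb arrays. Thyroglobulin (Tg) was at least 57.0-fold brighter, its probe being above background on all 3 pharyngeal arrays and none of the limb arrays. The filter had to keep it through the pharyngeal arrays, and with no filter its adjusted p = 0.0085. Of 6 listed thyroid and parathyroid markers 3 passed the filter, all 3 through pharyngeal arrays alone, with sums of 1101 to 3081 against 10.6 to 12.0. Of 5 measured tenocyte markers 3 fell, among them Fmod with the smallest adjusted p (-3.32, adjusted p = 0.0045), with sums of 299 to 343 against 1408 to 2575. No fibro-adipogenic, endothelial, myeloid, pericyte or myofibre marker passed as analysed. By smallest adjusted p, not by size, their first members were Dcn (-0.45), Vwf (-1.12), Lyz2 (1.82), Rgs5 (0.43) and Ckm (0.74). Of these, Vwf passed without pharyngeal pool 3 (-1.44, adjusted p = 0.0284), Lyz2 and Rgs5 with a trended, robust variance (adjusted p = 0.0380 and 0.0283) and Ckm without the filter (adjusted p = 0.0239). Their sums, pharyngeal before limb, were 2653 to 3444 and 3569 to 5069, 111 to 304 and 295 to 400, 402 to 938 and 104 to 269, 7247 to 7921 and 7092 to 7265, and 250 to 465 and 95.3 to 192. The part of these cell types in the values below was not tested. In pooled cells, fewer cells of a type and less RNA per cell cannot be told apart. The same holds for group and array position, since each group filled one end of the chip: they cannot be told apart.

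None of the 10 genes passed the test across all genes. Of 8 with a probe past the filter on dim probes, 0 were called by limma at an adjusted p under 0.05, where 3.32% of the 11262 genes tested were called (1.71% higher and 1.61% lower in pharyngeal pools). At an unadjusted p under 0.05, 3 of the 8 passed, against 20.3% of all genes. Of these Ccnd2 was higher, as were 8.74% of all genes, and Ccnd3 and Cdk4 were lower, as were 11.6%. The groups did not overlap for 4 of the 8, Ccnd2 above and Ccnd1, Ccnd3 and Cdk4 below in pharyngeal pools, against 26.7% of all genes (11.7% above and 15.0% below). The median difference of the 8 was -0.23 on the log2 scale, against -0.06 over all genes tested. In the fit of all 22633 kept probes, 0 of the 19 kept probes of these genes were called (2.51% of all kept probes were). At an unadjusted p under 0.05, 4 of the 19 passed, against 18.9% of all kept probes, and the groups did not overlap for 7 of the 19, against 25.5%.

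**Figure D1:**
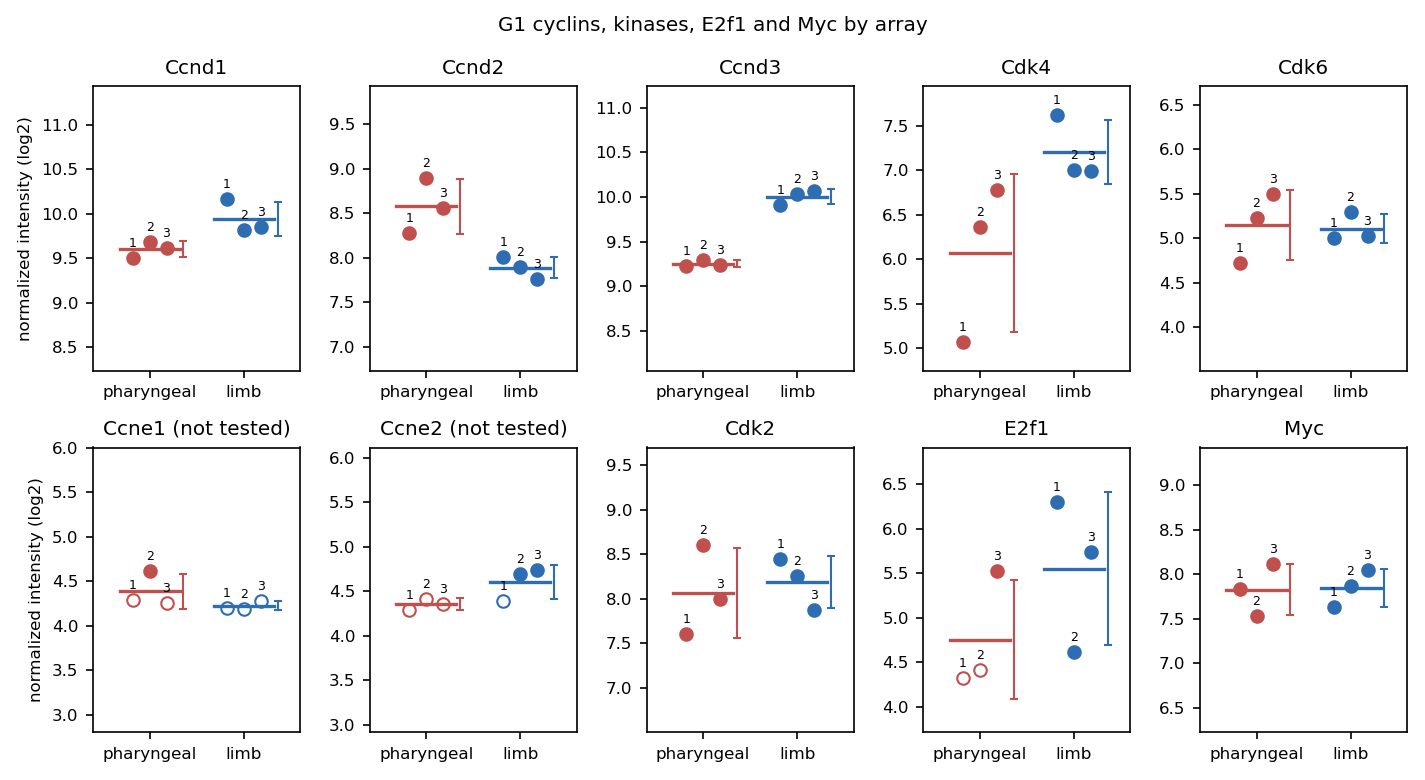
Normalized log2 intensity (y axis) of the probe used for each gene on the 3 pharyngeal (red) and 3 limb (blue) arrays, numbered by pool; filled points are above background, open points are not, lines are group means and bars to the right are 1 SD. The pharyngeal and limb points of Ccnd2, Ccnd3, Ccnd1 and Cdk4 do not overlap, while those of Cdk6, Cdk2, E2f1 and Myc do.

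Among the D-type cyclins, Ccnd2 was higher and Ccnd1 and Ccnd3 were lower in pharyngeal pools, none of them past the threshold. All values in this and the following paragraphs are normalized log2 intensities of single probes, which allow a gene to be compared between arrays and not with another gene. Ccnd3 read 9.23, 9.29 and 9.24 in pharyngeal pools 1 to 3 and 9.91, 10.03 and 10.06 in limb pools 1 to 3. Every pharyngeal value lay below every limb value, and the spread within each group was small (9.25 ± 0.03 against 10.00 ± 0.08, SD, n = 3). The difference was -0.75 (SE 0.17, 95% interval -1.16 to -0.34), a 1.68-fold lower level, with an adjusted p = 0.0680 in limma that did not pass the threshold. It was past the threshold in 5 of 17 other ways of processing the data, with adjusted p-values from 0.00691 to 0.311. Those 5 were the fits without a background model, with a larger offset, on the processed table, without the filter on dim probes and with a trended, robust variance. The first and the third are not separate evidence, since the processed table gave nearly the same values as the fit without a background model (-0.68 and an adjusted p = 0.0116 in both).

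Ccnd2, the D-type cyclin of many progenitor cells, lay on the other side. It read 8.28, 8.89 and 8.56 in the pharyngeal pools and 8.01, 7.90 and 7.77 in the limb pools. All 3 pharyngeal values were above all 3 limb values, with pharyngeal pool 2 the highest. The difference was 0.69 (SE 0.22, 95% interval 0.17 to 1.20, adjusted p = 0.144), a 1.61-fold higher level with means of 8.58 ± 0.31 and 7.89 ± 0.12. None of 17 alternatives brought it past the threshold (adjusted p from 0.0890 to 0.404), and the difference ranged from 0.53 to 0.84.

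Ccnd1, the D-type cyclin most directly tied to mitogen signalling, read 9.51, 9.68 and 9.62 in pharyngeal pools and 10.17, 9.82 and 9.85 in limb pools. The pharyngeal values lay just below the limb values, by 0.34 on average (a difference of -0.34, SE 0.19, 95% interval -0.79 to 0.11, adjusted p = 0.371). Limb pool 1 was the highest of the 6, and without it the difference was -0.23.

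Several probes measured each D-type cyclin, and they are given one by one. Of 4 Ccnd2 probes 3 were kept, and their differences were 0.69, 0.69 and 0.82. The probe at 0.82 was dim, above background on 3 of 3 pharyngeal and 1 of 3 limb arrays, is annotated to another transcript record than the pair at 0.69, and overlapped between groups (adjusted p = 0.409 in the probe fit). Among fits without 1 pool it ranged from 0.51 without pharyngeal pool 1 to 1.33 without limb pool 1, and its lowest value over all 15 alternatives was 0.31. The fourth Ccnd2 probe was above background on no array. Of 3 Ccnd1 probes the pair of bright probes gave -0.34 and -0.39, and a dim probe above background on 2 of 3 arrays in each group gave 0.04.

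The Ccnd3 probes gave unlike differences. ILMN_3131063, the brightest and the probe used above, is annotated to another transcript record than the remaining pair, which share a record. Of that pair, ILMN_2661849 gave -0.47 (SE 0.29) and ILMN_1246473 gave -0.0033 (SE 0.40), both above background on all 6 arrays. The first of these was -0.24 without pharyngeal pool 1 and -0.77 without pharyngeal pool 2. ILMN_1246473 read 7.36, 6.63 and 5.73 in pharyngeal pools 1, 2 and 3 and 6.26, 6.74 and 6.73 in limb pools, so that the pharyngeal pools spanned the limb range on both sides. With the mean of the 3 probes in place of the brightest, the Ccnd3 difference was -0.41 (adjusted p = 0.311).

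**Figure D2:**
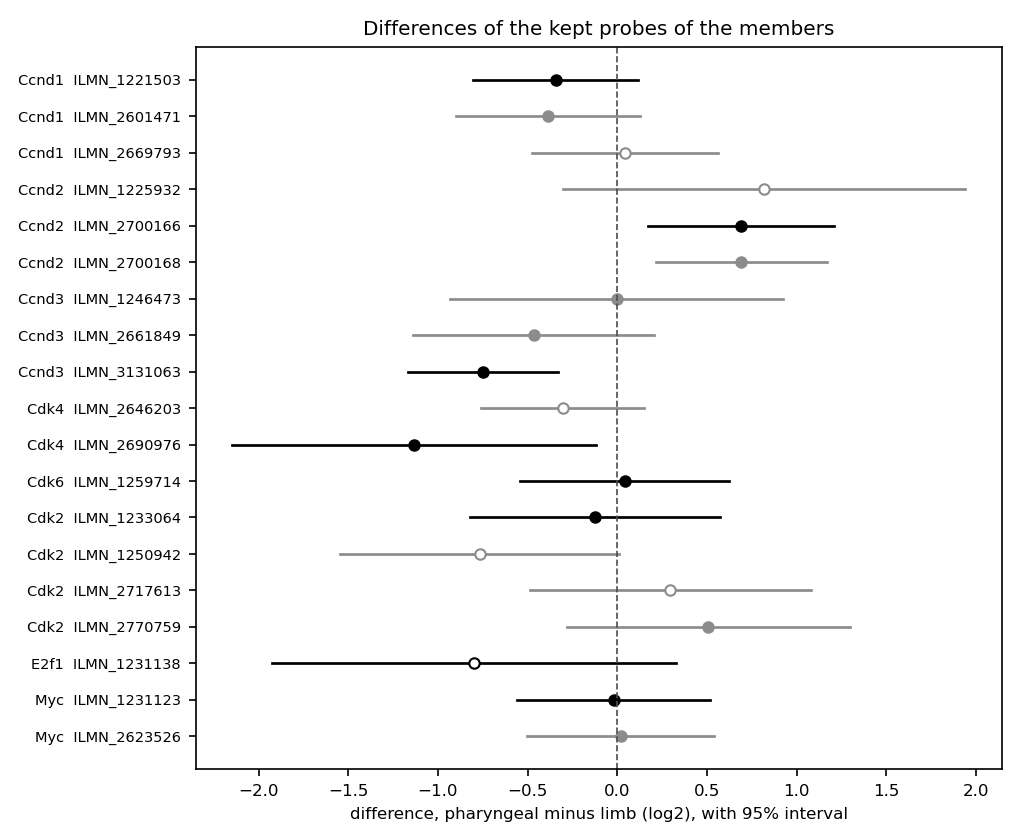
Difference between pharyngeal and limb pools (x axis, log2, pharyngeal minus limb) with its 95% interval for each of the 19 kept probes (y axis, gene and probe identifier), from the fit of all kept probes. Black marks the probe used for the gene, and open points mark probes not above background on all 6 arrays. The 3 kept Ccnd2 probes lie right of 0. Of the 3 Ccnd3 probes, 2 lie left of 0 and ILMN_1246473 lies almost on it (-0.0033).

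As a measure of how unequally the paralogues differed, the log2 value of a gene was taken minus that of its paralogue on the same array. Ccnd2 minus Ccnd3 was -0.95, -0.40 and -0.68 in pharyngeal pools and -1.90, -2.14 and -2.30 in limb pools. The groups differed by 1.44 on the log2 scale or 2.71-fold. Because Ccnd2 was above and Ccnd1 and Ccnd3 below on every pharyngeal array, the contrasts of Ccnd2 with either had to separate the groups, and they add only the size of the inequality between genes that did not pass. Ccnd1 minus Ccnd2 was 1.22, 0.79 and 1.06 in pharyngeal and 2.16, 1.93 and 2.08 in limb pools, a difference of -1.03. Ccnd1 minus Ccnd3 differed by 0.40, and its pharyngeal values of 0.28, 0.39 and 0.38 lay above limb values of 0.26, -0.21 and -0.22 by a small margin. Cdk4 minus Cdk6 differed by -1.17, which adds little to Cdk4 alone (-1.13), since the single dim Cdk6 probe differed by 0.04. For each of the 4 contrasts the groups did not overlap and the 2-sided exact permutation test gave p = 0.1, also after adjustment over the 4 contrasts. That is the smallest p that 3 against 3 arrays allow, so no contrast could pass a threshold of 0.05. The contrasts of Ccnd2 with Ccnd3 and of Ccnd1 with Ccnd2 lay between 1.14 and 1.58 and between -1.13 and -0.87 under 12 alternatives. Ccnd1 minus Ccnd3 ranged from 0.18 with the mean of kept probes (adjusted p = 0.5, exact permutation test) to 0.56 without limb pool 1. Cdk4 minus Cdk6 ranged from -1.37 without limb pool 2 to -0.62 without a background model or on the processed table.

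**Figure D3:**
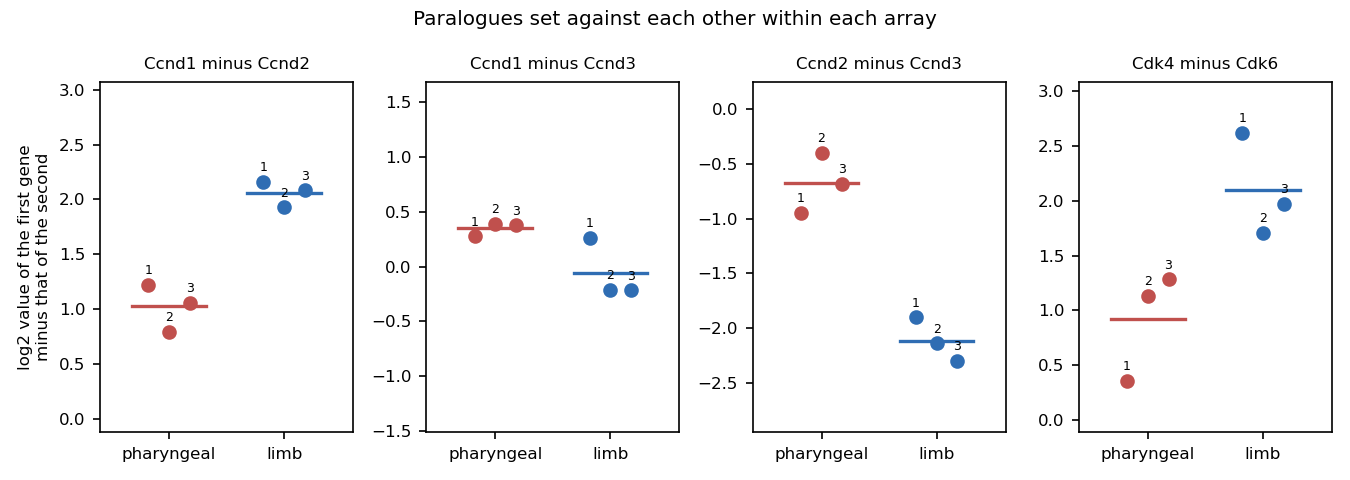
Log2 value of the first gene minus that of the second on the same array (y axis) for 4 pairs of paralogues, in pharyngeal (red) and limb (blue) pools, numbered by pool, with group means as lines. Ccnd2 minus Ccnd3 sits between -0.95 and -0.40 in pharyngeal and between -2.30 and -1.90 in limb pools; the height within a panel does not show which gene is more abundant.

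The kinase partners of the D-type cyclins gave a large, imprecise difference for Cdk4 and values close to 0 for Cdk6. Cdk4 read 5.07, 6.36 and 6.78 in pharyngeal pools and 7.62, 7.004 and 6.99 in limb pools. The groups did not overlap, yet pharyngeal pool 3 lay close to limb pools 2 and 3 and pharyngeal pool 1 lay far below the rest. The difference of -1.13 (SE 0.44, 95% interval -2.16 to -0.10, adjusted p = 0.212) goes with means of 6.07 ± 0.89 and 7.21 ± 0.36. Without pharyngeal pool 1 it was -0.63 (adjusted p = 0.268), and without pharyngeal pool 3 it was -1.50 (adjusted p = 0.116). Without a background model it was -0.60, and with the mean of both Cdk4 probes -0.72. A dim second Cdk4 probe differed by -0.30 (SE 0.20) and also did not overlap between groups.

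Cdk6 was measured by a single dim probe, which read 4.72, 5.23 and 5.50 in pharyngeal and 5.002, 5.30 and 5.02 in limb pools. The limb values lay inside the pharyngeal range. Its difference was 0.04 (SE 0.25, 95% interval -0.54 to 0.62, adjusted p = 0.950), which leaves room for changes of either sign within that interval.

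The E-type cyclins were at the edge of detection and were not tested. The only Ccne1 probe read 4.29, 4.61 and 4.26 in pharyngeal and 4.20, 4.19 and 4.28 in limb pools, and was above background on 1 array, that of pharyngeal pool 2. The only Ccne2 probe read 4.29, 4.41 and 4.36 in pharyngeal and 4.39, 4.69 and 4.74 in limb pools, and was above background on the arrays of limb pools 2 and 3. A fold between groups is not given for either gene, because values this close to background have no usable order.

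Their kinase Cdk2 was detected on every array and showed no difference beyond the spread between pools. It read 7.60, 8.60 and 7.99 in pharyngeal and 8.44, 8.25 and 7.87 in limb pools, with both the highest and the lowest value in the pharyngeal group. The difference was -0.12 (SE 0.30, 95% interval -0.82 to 0.58, adjusted p = 0.863). Its sign turned with the pool left out, from -0.39 without pharyngeal pool 2 to 0.11 without pharyngeal pool 1, and was also positive without limb pool 1. The other kept Cdk2 probes, all dimmer, gave -0.77, 0.30 and 0.51, none of them past the threshold (adjusted p = 0.269, 0.691 and 0.474 in the probe fit). The first moved to -0.44 without limb pool 3, and the last to 0.14 without pharyngeal pool 2. The probe at 0.30 is annotated to another transcript record than the other three.

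E2f1, a factor released by the cyclin and kinase pairs and itself an E2F target, was near background. Its probe read 4.33, 4.41 and 5.52 in pharyngeal and 6.30, 4.62 and 5.73 in limb pools, and was above background on 1 of 3 pharyngeal and 3 of 3 limb arrays. Pharyngeal pool 3 lay among the limb values and limb pool 2 close to the lower pharyngeal ones. The difference was -0.80 (SE 0.49, 95% interval -1.94 to 0.35, adjusted p = 0.416). It was -1.26 without limb pool 2, -1.18 without pharyngeal pool 3 and -0.43 without limb pool 1.

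Myc gave a difference close to 0 with both of its probes. The probe used read 7.83, 7.53 and 8.11 in pharyngeal and 7.63, 7.86 and 8.05 in limb pools, with the groups fully intermixed. The difference was -0.02 (SE 0.23, 95% interval -0.55 to 0.51, adjusted p = 0.975), with means of 7.83 ± 0.29 and 7.85 ± 0.21. The second Myc probe differed by 0.02 (SE 0.22) and was also above background on all 6 arrays.

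The spread within groups set what could be seen. The median SD of the 8 genes was 0.35 in pharyngeal and 0.20 in limb pools, close to the 0.36 and 0.22 over all genes tested. The median distance from a difference to either end of its 95% interval was 0.56 for the 8 genes. Ccnd3 had a far smaller pharyngeal SD (0.03) than Cdk4 (0.89), so that a smaller difference gave a smaller p-value.

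**Figure D4:**
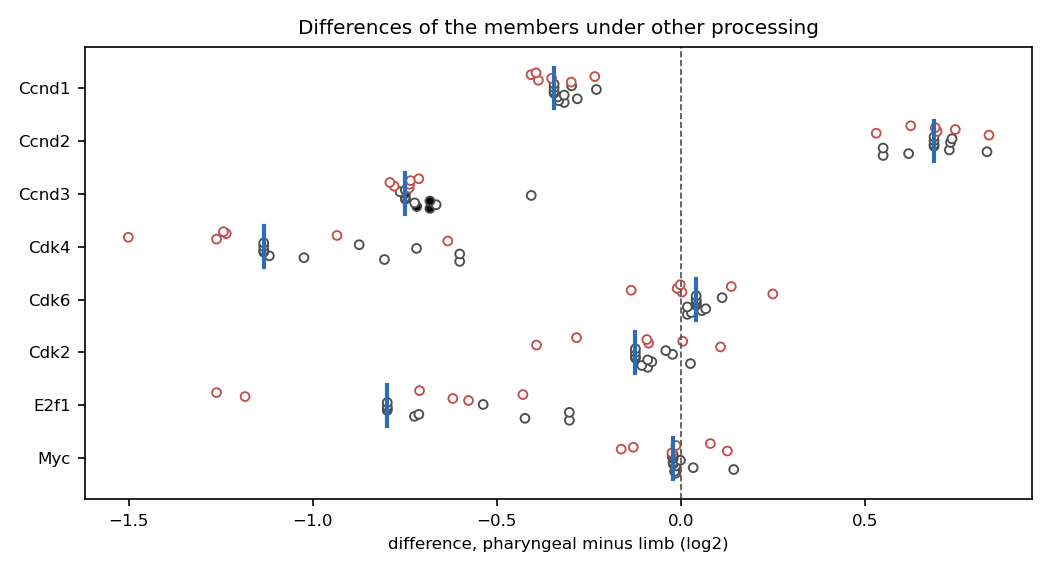
Difference between pharyngeal and limb pools (x axis, log2) of the 8 tested genes (y axis) as reported (blue bars) and under 17 other ways of processing (circles; red edges are fits without 1 pool, filled circles have an adjusted p under 0.05). Filled circles appear for Ccnd3 alone, while the circles of Cdk6, Cdk2 and Myc lie on both sides of 0.

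The wider G1 to S pathway was read from 8 lists with 82 genes, of which 67 were tested. Of the 67, 1 rose and none fell, where 1.71% of all genes tested rose and 1.61% fell. An unadjusted p under 0.05 was seen for 12 (17.9%, against 20.3% of all genes). The groups did not overlap for 14 (20.9%, against 26.7%). Their median difference was 0.03. The risen gene was Rrm1, the large subunit of ribonucleotide reductase that makes deoxynucleotides for DNA synthesis. It differed by 1.18 (SE 0.19, 95% interval 0.74 to 1.61, adjusted p = 0.0193), with means of 8.30 ± 0.16 and 7.13 ± 0.06. The call was lost without limb pool 1, 2 or 3 (adjusted p = 0.0945, 0.115 and 0.117) and with the mean of its probes (0.79, adjusted p = 0.119). Without those limb pools the difference was 1.15, 1.19 and 1.19, and the calls over all genes fell from 374 to 80, 62 and 58.

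Rrm1 was the only called gene of 14 tested E2F target genes of S phase entry, whose median difference was 0.04. The other 13 ranged from -0.23 for the replicative helicase subunit Mcm7 to 1.10 for the uracil DNA glycosylase Ung. The DNA clamp Pcna gave 0.12 and the reductase partner Rrm2 gave -0.10. Of the cyclins and kinase of S, G2 and M, 2 of 5 were tested, Ccna2 at 0.11 and Cdk1 at 0.66 (adjusted p = 0.381), and neither passed. Without pharyngeal pool 1 Cdk1 was at 0.21.

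Among inhibitors of the G1 kinases and the pocket proteins that they act upstream of, 9 of 10 were tested and none passed (median 0.03). Rbl1, a pocket protein related to the retinoblastoma protein, had the smallest adjusted p (0.90, SE 0.33, adjusted p = 0.192) and was above background on 1 of 3 limb arrays. Its difference was 0.45 with the mean of its kept probes (adjusted p = 0.366). Of the inhibitors whose groups did not overlap, Cdkn1a gave 0.59, Cdkn2c -0.61 and Cdkn1c -0.70. The retinoblastoma gene Rb1 gave 0.12 and Cdkn1b -0.13.

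The other E2F and DP factors also held no call among 7 of 9 tested (median -0.03). Tfdp2, which forms the DNA-binding dimer with E2F proteins, gave -1.09 (SE 0.34, adjusted p = 0.142) and E2f2 gave -1.48 (SE 0.55, adjusted p = 0.196). E2f2 overlapped between groups, with a pharyngeal SD of 1.19, and was above background on 2 of 3 pharyngeal arrays. Tfdp2 was at -0.47 with the mean of its kept probes. Without limb pool 1 another Tfdp2 probe was the brightest kept, and it gave 0.29.

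Of the Myc paralogues, partners and antagonists 8 of 10 were tested and none passed (median 0.08). Max, the obligate partner of Myc, gave -0.21, and the antagonist Mxd1 had the smallest adjusted p (0.74, SE 0.31, adjusted p = 0.242). Mxd1 passed with another probe without a background model and on the processed table (0.86 and 0.86, adjusted p = 0.0220 in both). Another probe also stood for Mxd1 without limb pool 1 or 2, where the difference was 1.73 and 1.45 (adjusted p = 0.0896 and 0.109). Of 14 Myc target genes 12 were tested and none passed (median 0.04), led by the nucleolar helicase Ddx21 at 0.51 (SE 0.19, adjusted p = 0.192).

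Among the CDK-activating kinase, Cdc25 and Wee1 genes 7 of 8 were tested with no call, and their median was -0.44. Cyclin H (Ccnh), a subunit of the CDK-activating kinase, gave -0.60 (SE 0.22, adjusted p = 0.188) and the inhibitory kinase Wee1 gave -0.85. Of the cyclin turnover genes 8 of 9 were tested with no call and a median of -0.02. Ambra1, the adaptor that directs D-type cyclins to degradation, gave -0.60 (SE 0.27, adjusted p = 0.272) and Fbxw7, which directs cyclin E and Myc to degradation, gave 0.16. With the mean of kept probes Ambra1 was at -0.13 (adjusted p = 0.759) and Ccnh at -0.30 (adjusted p = 0.367).

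**Figure D5:**
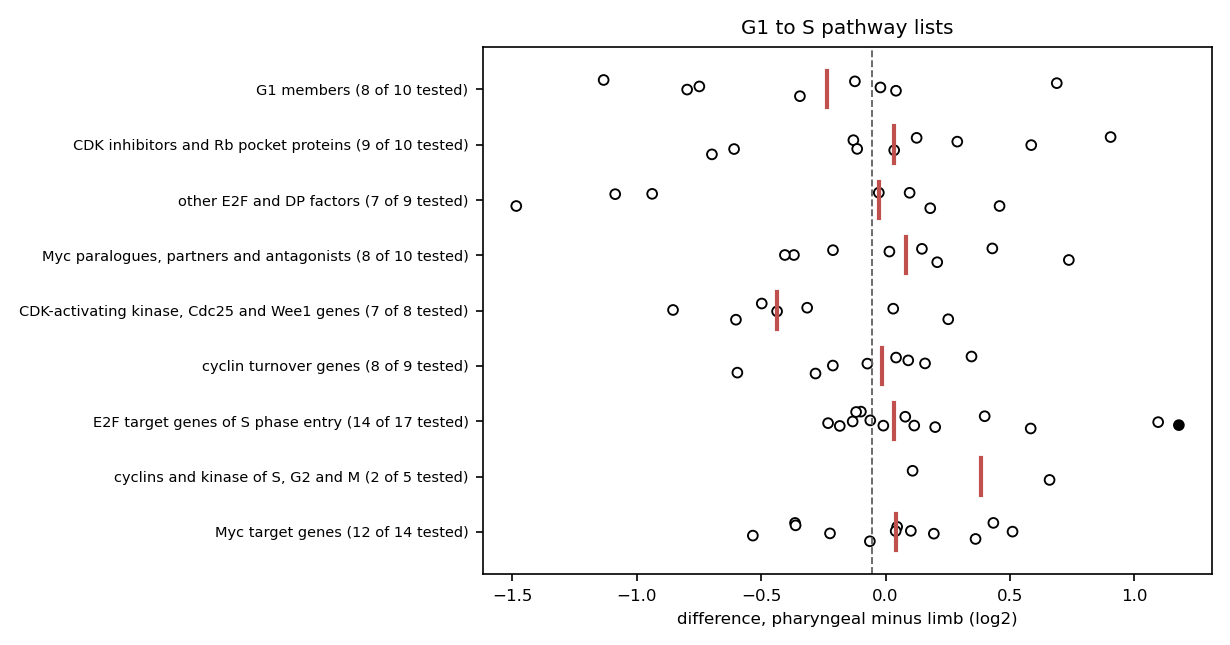
Difference between pharyngeal and limb pools (x axis, log2) of each tested gene in the G1 group and in 8 lists of the G1 to S pathway (y axis); filled points have an adjusted p under 0.05, red bars are list medians and the dashed line is the median of all genes tested (-0.06). The only filled point is Rrm1 at 1.18.

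Across the 6 arrays, the genes whose profile was most like that of Ccnd3 were Btg2, Sulf1 and Ttc33. Likeness was the root mean square difference of log2 values centred on each gene's mean, and it was 0.05, 0.06 and 0.07 for these genes against a median of 0.48 over 11261 genes. Btg2, an antiproliferative gene, Sulf1, a heparan sulfate sulfatase, and Ttc33 differed by -0.74, -0.77 and -0.75 and, like Ccnd3, did not pass (adjusted p = 0.0795, 0.0724 and 0.0772). Likeness was taken over the same 6 arrays, group difference included. Values close to those of Ccnd3 therefore follow from the choice and add no support to it. Btg2 and Sulf1 passed under 5 of 17 alternatives and Ttc33 under 4. Sulf1 was at -0.45 with the mean of its kept probes (adjusted p = 0.343).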

How the data were processed

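Per the labels, total RNA was amplified in 1 round, hybridized to Illumina MouseWG-6 v2.0 arrays after biotin labelling. The submitters' processing notes name GenomeStudio 2011.1. The deposited tables hold raw intensity, paired with detection p-values, and a second, processed intensity on a linear scale whose array medians lie between 99.5 and 99.6. Results come from the raw intensity, and the processed one was tried as an alternative.

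The normexp model of limma 3.58.1 (R 4.3.3) took the background from the detection p-values, with an offset of 16 that shrinks the folds of dim genes. Values were then quantile normalized and put on the log2 scale. The filter, a detection p under 0.05 on 3 or more arrays, left 22633 probes. The brightest of a gene's kept probes stood for that gene (11262 genes). Pharyngeal minus limb differences were fitted by lmFit and eBayes with no term but group, 2-sided, with Benjamini-Hochberg adjustment over all genes (or, in the probe fit, all kept probes) and a threshold of 0.05. Summed marker intensities are normalized values less the offset. With 3 arrays a group, precision is limited by that number. The p-values reflect the spread among pools after eBayes drew each gene's variance toward that of all genes fitted (prior degrees of freedom 3.44). A gene with little spread, such as Ccnd3, thus has a larger SE than its own pools alone would give. The Ccnd3 SE was 0.17 as analysed and 0.07 without the filter.

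In the platform annotation 34885 probes carry 1 gene, 18 carry several and 10378 are unnamed here. No probe used here is named for Ccnb1, Fbl, Dsp, Ly6a or Cd68. The genome build of the annotation is not stated in the sources used here. Named are all 10 genes, from each pathway list the called genes or else the gene with the smallest adjusted p, the 3 genes most like the leading gene, and fixed or leading markers. Mcm7, Ung, Pcna, Rrm2, Ccna2, Cdkn1a, Cdkn2c, Cdkn1c, Rb1, Cdkn1b, E2f2, Max, Wee1 and Fbxw7 were named after their values were seen. The genes and lists were chosen with earlier results of these data known.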

Additional observations from a re-analysis of the deposited data

How the results depend on the processing

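The count of 0 called genes among the G1 cyclins, kinases, E2f1 and Myc became 1, Ccnd3, without a background model, with an offset of 50, with the processed table, without the filter on dim probes and with a trended, robust variance. It stayed 0 under the other 12 alternatives, the 6 fits without 1 array included. The count of their called probes also became 1 under those 5 alternatives, with the same Ccnd3 probe. The count of called pathway genes was 2 without a background model, with the processed table and with the trended, robust variance, 0 with the mean of kept probes and with the replicate block, and 0 to 2 without 1 array. Uncalled differences near 0 turned sign under some scalings, Cdk2 to 0.0264 with median scaling, and Myc to 0.14 with median scaling and 0.0338 with cyclic loess, in both fits. The Ccnd3 probe ILMN_1246473 went to 0.0315 without a background model, 0.0241 with the larger offset, 0.16 with median scaling, 0.0632 with cyclic loess and 0.0315 with the processed table. The cause was not tested. Without 1 array the ranges that crossed 0 were -0.13 to 0.25 for Cdk6, -0.39 to 0.11 for Cdk2, -0.16 to 0.13 for Myc and -1.34 to 0.29 for Tfdp2. For single probes they were -0.10 to 0.19 for the dim Ccnd1 probe, -0.39 to 0.42 for ILMN_1246473, -0.0221 to 0.61 for the Cdk2 probe ILMN_2717613 and -0.12 to 0.17 for the second Myc probe. The differences of Ccnd1, Ccnd2, Ccnd3, Cdk4 and E2f1 kept their sign under every alternative in which they could be tested; E2f1 had no probe above background on all 6 arrays. The filters, variance model, array weights and block do not enter the paralogue contrasts, which had 12 alternatives.

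Same-numbered pharyngeal and limb arrays did not deviate together, with correlations of -0.0102, -0.0132 and 0.000225 across genes, and pharyngeal array 1 correlated best with limb array 2 (0.03), so the numbers were not taken as pairs. With the replicate block 139 genes were called in all, against 374, no G1 gene was called, and Rrm1, Pax7 and Myf5 lost their calls (adjusted p = 0.0714, 0.0587 and 0.0603). Counts of all called genes also fell to 80, 62 and 58 without limb arrays 1, 2 and 3.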
